A study of Mus musculus with 32 samples.

Results

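Messenger RNA of the Wnt ligands, their Frizzled receptors and the secreted proteins that tune Wnt signaling was followed in mouse colon from the untreated state to tumors. The genes were taken by symbol from the table of gene counts, as every row named Wnt, Fzd, Sfrp, Dkk or Rspo followed by a member number, and 41 of 55291 rows matched. These were 19 Wnt ligands, 10 Frizzled receptors, 4 secreted Frizzled-related proteins, 4 Dickkopf proteins and 4 R-spondins. The study asked how loss of Dnase1l3, which encodes a secreted DNase, affects colon carcinogenesis. It used a mouse strain on the C57BL/6 background that lacks the gene constitutively in the whole body, labelled DNase MUT and called KO here, and mice labelled DNase WT. Tumors were induced with the carcinogen azoxymethane (AOM), given once by intraperitoneal injection, and with cycles of dextran sulfate sodium (DSS) in the drinking water, which injures the colon epithelium. The 8 groups were KO and WT whole colon at the basal, untreated state (D0), after 1 cycle of AOM/DSS with a recovery period (D19) and after 3 cycles (D80), and KO and WT tumors taken after 3 cycles. Each colon group held 4 mice, with 3 KO and 5 WT tumors. The deletion is not confined to any cell type, no group received AOM or DSS alone, and mice were 3 months old at the AOM injection per the methods, while the age of the untreated D0 mice is not given in the sources used here.

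Wnt ligands are lipid-modified secreted proteins that act over short distances. They bind a Frizzled receptor together with the co-receptor Lrp5 or Lrp6, which stabilizes beta-catenin and switches on target genes, or they signal through Frizzleds and other receptors without beta-catenin. Secreted Frizzled-related proteins bind ligands outside the cell, Dickkopf proteins bind the Lrp co-receptors, and R-spondins bind Lgr receptors and thereby keep the ligases Rnf43 and Znrf3 from removing Frizzleds from the surface. In the mouse intestine the stem cells at the crypt base depend on Wnt and R-spondin, much of which comes from mesenchymal cells beneath the epithelium. Most human colorectal tumors carry changes that activate beta-catenin within the epithelial cell.

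The libraries held between 18951121 and 47623288 counted reads, with a median of 34333250. All values below are CPM, the counts of a gene relative to the size of its library with TMM factors over the 32 libraries, and values between genes are compared only as CPM per kilobase of exon. Values by library are given in the order of mice 852, 853, 915 and 872 (KO D0), 851, 918, 920 and 927 (WT D0), 811, 813, 803 and 804 (KO D19), 685, 686, 805 and 812 (WT D19), 527, 535, 543 and 544 (KO D80), 581, 541, 542 and 555 (WT D80), 527, 543 and 544 (KO tumors) and 534, 541, 542, 579 and 555 (WT tumors). Whole colon and tumors both carried the defining markers of colon epithelium, whose 10 genes summed to 7915 to 13712 CPM in KO tumors, 11823 to 15969.8 CPM in WT tumors and 11194 to 12282 and 13235 to 15189 CPM in KO and WT D80 colon, with none of them at 0. Dnase1l3 was still counted in KO samples, at 20 to 386 counts per KO library and 40 to 413 per WT library. Counts per gene do not show which exons were read, so they do not check the genotype labels, and genotypes are named here as labelled. A library in each of 3 groups stood apart from the rest of its group in the make-up of its counts. These were KO D19 811 with 10.6% of counts from mitochondrial and 8.74% from ribosomal protein genes, WT D80 581 with 15.1% and 7.56%, and KO tumor 544 with 8.02% and 12.4%. Such shares do not measure RNA quality directly, and the mitochondrial share reached 11.5% in KO D0 852 and 11.7% in WT D0 851. In WT D80 581 the 41 genes took 0.0108% of the counts, against 0.0350% to 0.0399% in the other WT D80 libraries. The mice 527, 543 and 544 (KO) and 541, 542 and 555 (WT) gave both a D80 colon and a tumor library. These are bulk samples, so fewer cells of a type and less RNA per cell cannot be told apart.

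Upstream sequences are shown for some of the genes that rose together or fell together in tumors, so that their windows can be set side by side. RefSeq (GRCm38.p6) gave promoters for 27 of the 41 genes, and each line holds the 250 bases before the annotated start, 5′ to 3′ on the gene's own strand. Wnt6 (chr1:74771642-74771891, plus strand), Wnt7a (chr6:91411354-91411603, minus strand), Wnt16 (chr6:22287977-22288226, plus strand) and Dkk2 (chr3:132085042-132085291, plus strand) rose in tumors of both genotypes, and Wnt11 (chr7:98834862-98835111, plus strand) rose in WT tumors. Wnt2 (chr6:18030446-18030695, minus strand) and Wnt2b (chr3:104961710-104961959, minus strand) fell in tumors of both genotypes. Capitals mark a match to the core letters bound by the TCF and LEF factors, the nuclear partners of beta-catenin.
Wnt6: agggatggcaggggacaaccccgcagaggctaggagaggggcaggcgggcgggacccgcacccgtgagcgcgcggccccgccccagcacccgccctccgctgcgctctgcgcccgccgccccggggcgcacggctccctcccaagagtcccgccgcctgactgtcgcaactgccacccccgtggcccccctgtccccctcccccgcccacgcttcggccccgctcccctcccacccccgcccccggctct
Wnt7a: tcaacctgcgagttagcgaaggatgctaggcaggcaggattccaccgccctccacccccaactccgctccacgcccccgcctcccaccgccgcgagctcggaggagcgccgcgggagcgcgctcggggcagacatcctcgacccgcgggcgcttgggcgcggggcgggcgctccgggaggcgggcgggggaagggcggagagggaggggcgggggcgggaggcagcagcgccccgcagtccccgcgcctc
Wnt16: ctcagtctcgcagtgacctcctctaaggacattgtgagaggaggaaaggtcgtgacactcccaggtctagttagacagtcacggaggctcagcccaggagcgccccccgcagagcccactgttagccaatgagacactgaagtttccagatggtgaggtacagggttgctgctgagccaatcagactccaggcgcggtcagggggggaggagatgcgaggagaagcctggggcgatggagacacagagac
Dkk2: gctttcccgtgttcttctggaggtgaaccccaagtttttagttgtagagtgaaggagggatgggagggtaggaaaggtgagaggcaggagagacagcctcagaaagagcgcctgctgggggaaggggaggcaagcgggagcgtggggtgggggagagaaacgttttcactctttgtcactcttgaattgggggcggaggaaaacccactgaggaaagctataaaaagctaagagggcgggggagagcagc
Wnt11: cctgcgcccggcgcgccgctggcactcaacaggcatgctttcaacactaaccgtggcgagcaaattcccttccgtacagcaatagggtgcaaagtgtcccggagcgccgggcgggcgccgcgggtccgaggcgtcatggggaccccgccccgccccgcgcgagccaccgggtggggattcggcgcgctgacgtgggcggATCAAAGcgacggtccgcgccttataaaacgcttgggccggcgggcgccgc
Wnt2: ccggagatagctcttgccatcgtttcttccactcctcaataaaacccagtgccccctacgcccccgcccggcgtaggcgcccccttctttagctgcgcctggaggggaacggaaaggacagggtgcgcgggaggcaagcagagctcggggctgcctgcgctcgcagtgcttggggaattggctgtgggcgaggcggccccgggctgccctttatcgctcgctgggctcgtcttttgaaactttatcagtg
Wnt2b: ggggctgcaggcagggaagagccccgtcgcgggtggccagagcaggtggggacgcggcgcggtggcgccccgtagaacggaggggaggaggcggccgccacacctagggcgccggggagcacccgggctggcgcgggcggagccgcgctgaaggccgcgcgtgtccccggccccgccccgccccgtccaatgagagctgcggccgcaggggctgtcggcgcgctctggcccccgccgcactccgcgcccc
The motif searched was CTTTGAA or its variants, which are the form CTTTGAT, the form CTTTGTA and the form CTTTGTT, on both strands, and overlapping matches were allowed. They occurred in 4 of the 30 windows of these genes, 13.3%, against 14.8% of the 32851 windows of all genes. The 4 windows belonged to Wnt11, Fzd7, Wnt5b and Dkk1, and a match is no evidence of binding. Wnt11 has another window (chr7:98838595-98838844, plus strand), not shown, without a match. The windows of Wnt3, Wnt4 and Wnt10b, which also rose in WT tumors and are not shown, held no match either. The same held for Fzd10, which rose in tumors of both genotypes, and for Fzd4, Fzd9 and Rspo1, which fell in both, all not shown. Composition varied widely among the windows, from 48.4% to 87.6% G and C and from 4 to 48 CpG pairs, with medians of 68.8% and 22, against medians of 52.4% and 6 in windows of all genes. Of those shown, that of Wnt2b held 80.8% and 36 CpG pairs and that of Dkk2 55.6% and 7. Some members are also chromosomal neighbours: Wnt6 and Wnt10a lie 6193 bases apart on chromosome 1, Wnt10b and Wnt1 11706 bases apart on chromosome 15, and on chromosome 11 Wnt3a and Wnt9a lie 16175 bases apart and Wnt9b and Wnt3 24328 bases apart.

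Summed by role, the classes followed different courses across the stages. The 19 ligands together stood at 2.4 to 3.5 CPM per kilobase in KO D0 colon, 6.75 to 10.7 at KO D19, 7.34 to 21.6 at KO D80 and 39.7 to 61.7 in KO tumors. In WT samples the same sum was 2.2 to 3.85 at D0, 8.01 to 9.33 at D19, 3.76 to 10.8 at D80 and 27.6 to 57.6 in tumors. Ligand sums of tumors thus lay above those of every colon library in both genotypes. Frizzled sums stayed within 21.4 to 45.2 CPM per kilobase over all 32 libraries.

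Secreted Frizzled-related proteins had their highest sums at D19, with 3.18 to 11.3 CPM per kilobase at KO D0, 29.5 to 68.9 at KO D19, 25.8 to 33 at KO D80 and 4.29 to 6.04 in KO tumors. The WT sums were 3.22 to 10.8, 15.6 to 45.6, 7.2 to 21.2 and 3.54 to 5.58 CPM per kilobase at D0, D19, D80 and in tumors. R-spondin sums were below D80 colon in tumors, at 0.287 to 0.627 CPM per kilobase in KO and 0.24 to 0.758 in WT tumors, against 2.03 to 2.95 in KO D80 and 1.21 to 2.43 in WT D80 colon. At D0 they were 0.658 to 2.1 in KO and 0.748 to 1.9 in WT colon, so that WT tumors overlapped with WT D0 and KO tumors came close to KO D0. The Dickkopf sum went the other way, with 25.3 to 38.2 in KO and 23.9 to 50.3 in WT tumors, against 12 to 21 in KO D80 and 7.86 to 16.8 in WT D80 colon. Ligand and Dickkopf sums were therefore high in tumors while Sfrp and R-spondin sums were below those of D80 colon. A few genes carry these sums, such as Sfrp1 at D19 and D80 and Wnt6 and Wnt10a in tumors. Members of a class could differ, since Dkk2 rose in tumors while Dkk3 was not called, and Wnt2 and Wnt2b fell.

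**Figure D1:**
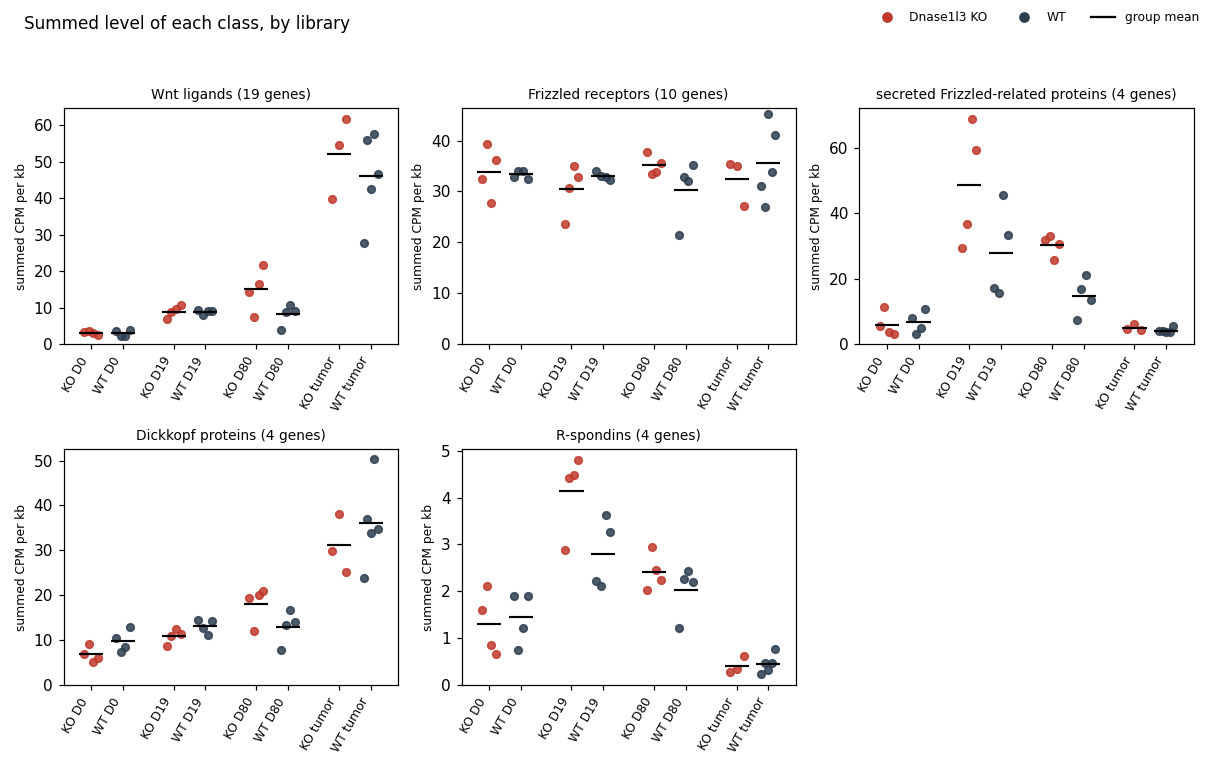
Summed level of each class in CPM per kilobase of exon, 1 point per library, by stage from D0 to tumor with KO left of WT, and black bars at group means. Sums of ligands and of Dickkopf proteins are highest in tumors, whereas those of secreted Frizzled-related proteins peak at D19. R-spondin sums of tumors lie below D80 colon and reach the D0 range in WT.

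The leading gene changed with the stage. In D0 colon it was Fzd5, an epithelial Frizzled needed for Paneth cell maturation in the mouse, with a mean of 13.9 CPM per kilobase in KO and 14.1 in WT. At D19 it was Sfrp1, at 45.5 in KO and 24.5 in WT. Sfrp1 also led at D80, with 28.3 in KO and 12.6 in WT, and Dkk3, a divergent Dickkopf, came next at 15.2 and 11.9. In tumors Wnt6 led at 25.3 CPM per kilobase in KO and 20.8 in WT, alongside Dkk3 (15.9 and 18.7), Dkk2 (15.1 and 17.3) and Wnt10a (14.9 and 12.7). Single tumors varied widely, with Wnt6 values of 38.5 to 68.4 CPM in KO and 19 to 57.6 CPM in WT tumors.

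The first comparison asked what changed after 1 cycle of AOM/DSS. Groups of libraries were compared with the quasi-likelihood test of edgeR over all genes that passed a filter on low counts, and a gene is said to have risen or fallen where its Benjamini-Hochberg adjusted p was under 0.05 and its fold change over 2. In KO D19 against KO D0 colon, 26 of the 41 genes passed the filter, 8 rose, against 8.95% of all genes tested, and Fzd5 alone fell, against 2.52%. In WT D19 against WT D0 colon 27 were tested and 9 rose, against 9.33% of all genes. The median log2 fold change of the tested members was 0.83 in KO and 0.48 in WT, beside 0.03 and 0.00 over all genes. A gene that passes the filter only through its high group enters such counts with a difference built in. This held for Wnt2 in both genotypes and Sfrp2 in WT, since too few of their D0 libraries reached the minimum, and 7 of the 8 in KO and 7 of the 9 in WT passed in D0 colon as well. The share of all genes under this stricter condition was not computed, here or below. The D0 libraries also serve the D80 comparisons below, so the D19 and D80 results are not independent. D0, D19 and D80 labels share no number before the mouse number, and what it stands for is not given. Treatment, age and any grouping behind that number therefore cannot be told apart between these stages.

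Among ligands, Wnt2b, which mesenchymal cells make in the mouse intestine, stood at 2.5, 3.29, 1.94 and 0.759 CPM in the KO D0 colons, 6.24, 12.4, 8.69 and 10.6 at KO D19 and 12.1, 10.1, 10.1 and 13 at KO D80. The WT values were 2.1, 0.606, 0.672 and 1.34 CPM at D0, 16.7, 12.9, 10.5 and 12.1 at D19 and 3.04, 11.9, 9.98 and 14.3 at D80. Every treated library lay above every untreated library of its genotype, with the smallest margin in WT D80 581. Against D0 the log2 fold change was 2.14 (adjusted p = 0.00736, SE 0.42) at KO D19 and 3.41 (adjusted p = 0.000110, SE 0.35) at WT D19. At D80 it was 2.37 (adjusted p = 0.000332, SE 0.34) in KO and 3.02 (adjusted p = 0.00798, SE 0.54) in WT.

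Wnt2, its paralog and a beta-catenin-dependent ligand, was much scarcer but moved alike, at 0.159, 0.217, 0.233 and 0.0584 CPM in KO D0, 1.52, 0.658, 0.665 and 0.90 in KO D19 and 0.604, 0.407, 0.538 and 0.829 in KO D80 colon. The WT colons gave 0.0437, 0.151, 0.0896 and 0.0937 CPM at D0, 1.44, 1.27, 0.709 and 1.08 at D19 and 1.01, 0.573, 0.329 and 0.455 at D80. With 2 to 9 counts in KO D0 and 1 to 3 in WT D0 libraries, Wnt2 passed the filter through the treated groups alone, so its calls at D19 and D80 have a difference built in. No D0 library reached a treated library of its genotype. The log2 fold change was 2.43 (adjusted p = 0.00743, SE 0.48) at KO D19, 3.48 (adjusted p = 0.000165, SE 0.40) at WT D19 and 1.75 (adjusted p = 0.00468, SE 0.40) at KO D80. At WT D80 it was 2.54 (adjusted p = 0.0134, SE 0.52), a call lost without WT D0 920 (log2 fold change 2.53, adjusted p = 0.0507).

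Wnt5a, the best known ligand that acts without beta-catenin and a product of the stroma, stood at 6.8, 6.94, 5.96 and 5.99 CPM in KO D0, 19.4, 16.1, 31.7 and 28.7 in KO D19 and 28.9, 13.6, 26.5 and 29.9 in KO D80 colon. WT colons had 9.48, 5.91, 6.4 and 8.59 CPM at D0, 12.1, 10.6, 23.8 and 18.6 at D19 and 6.99, 16.3, 21.8 and 13.5 at D80. In KO colon all 8 treated libraries exceeded the untreated ones, while WT D80 581 lay inside the WT D0 range. Wnt5a rose at KO D19 (log2 fold change 1.87, SE 0.24, adjusted p = 0.000687) and KO D80 (log2 fold change 1.90, SE 0.23, adjusted p = 0.000107). At WT D19 the log2 fold change was 1.05 (adjusted p = 0.00800, SE 0.26), with the call lost without WT D0 918, WT D0 920, WT D19 805 or WT D19 812 (log2 fold change 0.82 to 0.98, adjusted p 0.0172 to 0.0277).

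Wnt4, a ligand of both branches, rose at KO D19, with 2.63, 5.7, 5.3 and 8.17 CPM against 1.3, 0.687, 1.86 and 1.14 CPM in KO D0 colon (log2 fold change 2.09, SE 0.41, adjusted p = 0.00715). In WT D19 colon it had 3.44, 2.85, 5.7 and 5.14 CPM, against 1.97, 1.51, 0.94 and 2.28 CPM in WT D0 colon (log2 fold change 1.30, SE 0.30, adjusted p = 0.00611). At KO D80 it had 2.58, 3.65, 4.43 and 3.78 CPM, also above every KO D0 library (log2 fold change 1.46, SE 0.30, adjusted p = 0.00248). Wnt4 therefore separated both D19 groups and KO D80 colon from their D0 groups.

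Among the secreted inhibitors Sfrp1, which binds Wnt ligands before they reach a Frizzled, led the members per kilobase at D19 and D80, as given above. KO colons had 18.1, 36.6, 10.9 and 11.4 CPM at D0, 119.6, 152, 283 and 241 at D19 and 128, 136, 105 and 126 at D80. WT colons had 30.7, 11.9, 17 and 36.9 CPM at D0, 57.3, 52.9, 184 and 134 at D19 and 25.8, 65.4, 83.6 and 44.9 at D80. The KO groups did not overlap with KO D0, nor did WT D19 with WT D0, whereas the lowest WT D80 library, 581, lay within WT D0. Sfrp1 rose at KO D19 (log2 fold change 3.35, SE 0.46, adjusted p = 0.000980), WT D19 (log2 fold change 2.09, SE 0.46, adjusted p = 0.00456) and KO D80 (log2 fold change 2.65, SE 0.35, adjusted p = 0.000201). At WT D80 its log2 fold change was 1.16 (adjusted p = 0.129, SE 0.44).

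Sfrp4, of the same family, had 0.718, 1.88, 0.492 and 0.467 CPM in KO D0, 3.24, 1.95, 3.75 and 4.63 in KO D19 and 1.54, 3.0, 2.79 and 1.53 in KO D80 colon. In WT it had 1.09, 0.404, 0.537 and 0.968 CPM at D0, 3.07, 1.91, 2.81 and 3.33 at D19 and 1.3, 2.76, 1.97 and 2.25 at D80. KO D0 853 was high for its group and overlapped with KO D80. The log2 fold change was 1.93 (adjusted p = 0.0252, SE 0.48) at KO D19, 1.81 (adjusted p = 0.00128, SE 0.31) at WT D19, 1.31 (adjusted p = 0.0334, SE 0.45) at KO D80 and 1.43 (adjusted p = 0.0343, SE 0.37) at WT D80. The KO D19 call was lost without KO D0 852, KO D0 872, KO D0 915, KO D19 803 or KO D19 804 (log2 fold change 1.71 to 1.88, adjusted p 0.0622 to 0.0802). That of KO D80 was lost without KO D0 852, KO D0 872, KO D0 915, KO D80 535 or KO D80 543 (log2 fold change 1.07 to 1.19, adjusted p 0.0806 to 0.0997) and that of WT D80 without WT D0 918, WT D0 920, WT D0 927, WT D80 541, WT D80 542 or WT D80 555 (log2 fold change 1.23 to 1.57, adjusted p 0.0618 to 0.119).

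Sfrp2 rose at WT D19, where it had 5.31, 5.02, 4.51 and 3.13 CPM, against 0.306, 0.252, 0.493 and 2.87 CPM in WT D0 colon (log2 fold change 2.06, SE 0.63, adjusted p = 0.0223). WT D0 927 was the high library of its group. The Sfrp2 call was lost without WT D0 851 or WT D0 920 (log2 fold change 1.77 to 1.85, adjusted p 0.0559 to 0.0635). Sfrp5, the remaining member of the family, had group means between 0.448 and 1.29 CPM and was called in no comparison.

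Of the R-spondins, Rspo3, which mesenchymal cells around the mouse crypt make, had 2.5, 4.27, 1.94 and 1.78 CPM in KO D0, 5.91, 11.2, 10.3 and 11.4 in KO D19 and 5.27, 6.95, 5.45 and 4.76 in KO D80 colon. The WT libraries had 3.71, 1.92, 3.27 and 4.34 CPM at D0, 5.82, 5.12, 8.89 and 8.57 at D19 and 2.59, 4.82, 5.41 and 5.29 at D80. D19 colons lay above D0 colons in both genotypes, and at D80 this held in KO only. The log2 fold change was 1.87 (adjusted p = 0.00465, SE 0.34) at KO D19 and 1.05 (adjusted p = 0.00867, SE 0.26) at WT D19, the second call being lost without WT D0 918, WT D19 805 or WT D19 812 (log2 fold change 0.86 to 0.95, adjusted p 0.0124 to 0.0262). At KO D80 it was 1.06 (adjusted p = 0.00819, SE 0.27), and that call was lost without KO D0 872, KO D0 915 or KO D80 535 (log2 fold change 0.89 to 0.94, adjusted p 0.0218 to 0.0307).

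**Figure D2:**
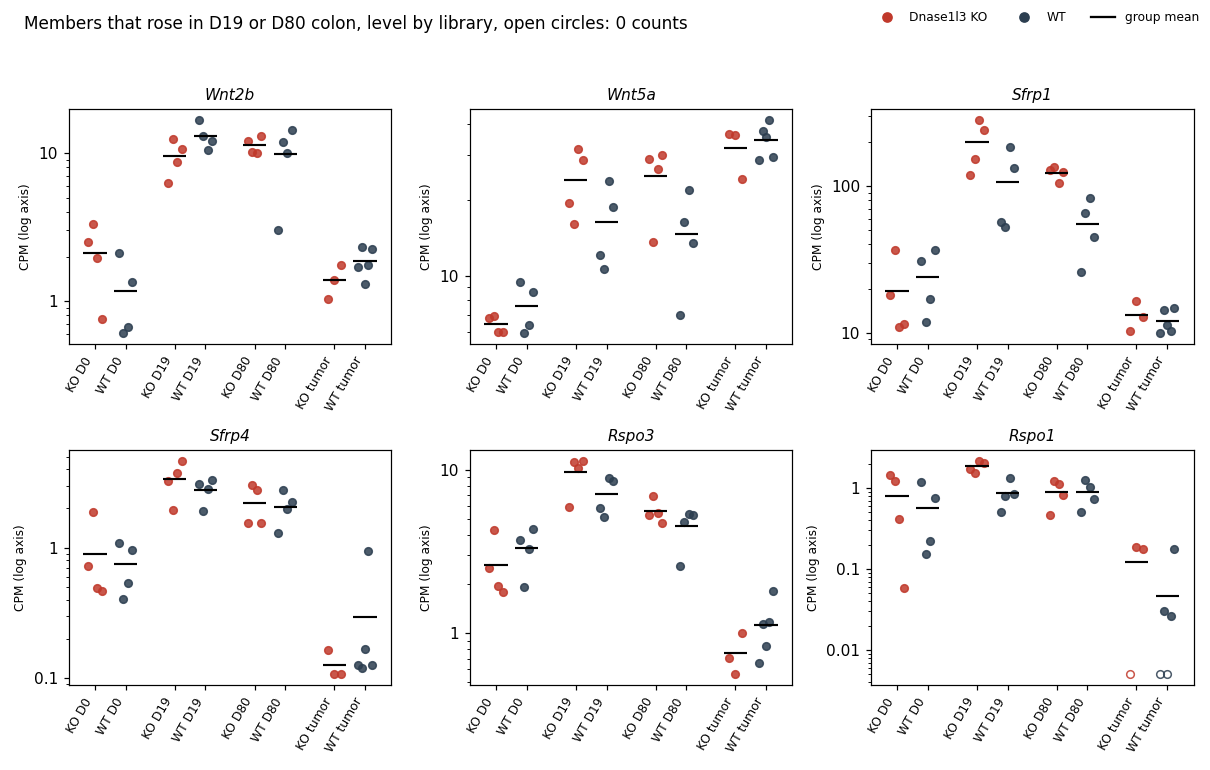
CPM (log axis) of Wnt2b, Wnt5a, Sfrp1, Sfrp4, Rspo3 and Rspo1 in each library, by stage with KO left of WT, black bars at group means and open circles at 0 counts. Sfrp1 spans 10.9 to 36.9 CPM at D0, 52.9 to 283 CPM at D19 and 9.89 to 16.4 CPM in tumors.

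Frizzled receptors changed less. Fzd4, which also binds Norrin, had 9.78, 8.48, 7.52 and 8.47 CPM in WT D0, 18.3, 18.4, 18.4 and 17.9 CPM in WT D19 and 16.2, 19.5, 16.9 and 18.3 CPM in WT D80 colon. It rose in WT D19 (log2 fold change 1.05, SE 0.10, adjusted p = 8.83e-05) and WT D80 colon (log2 fold change 1.02, SE 0.16, adjusted p = 0.00422) close to the fold threshold. The WT D19 call was lost without WT D0 920 (log2 fold change 0.98, adjusted p = 0.000564) and the WT D80 call without WT D0 920 or WT D80 541 (log2 fold change 0.95 to 0.99, adjusted p 0.0208 to 0.0254). In KO colon the log2 fold changes of Fzd4, 0.98 (adjusted p = 0.0143, SE 0.22) at D19 and 0.79 (adjusted p = 0.00137, SE 0.15) at D80, did not pass the fold threshold.

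Fzd1, a receptor that can signal through beta-catenin, had 40.6, 49.4, 57.8 and 54.5 CPM in KO D19 colon, against 25.8, 33.7, 22.6 and 17 CPM in KO D0 colon (log2 fold change 1.01, SE 0.23, adjusted p = 0.0181). Its call was lost without KO D0 852, KO D0 872, KO D0 915, KO D19 803 or KO D19 804 (log2 fold change 0.85 to 1.03, adjusted p 0.0517 to 0.0679) as well as with DESeq2 and with RLE size factors. Fzd5 fell there, with 16, 54.8, 43 and 42.9 CPM at KO D19, against 90.2, 83.7, 79.7 and 131 CPM at KO D0 (log2 fold change -1.31, SE 0.35, adjusted p = 0.0350). The lowest of these values came from KO D19 811, the library that stood apart, and the call was lost without KO D0 852, KO D0 853, KO D0 872, KO D0 915, KO D19 803 or KO D19 804 (log2 fold change -1.40 to -1.14, adjusted p 0.0599 to 0.106). In WT colon Fzd5 had 66, 64.9, 51.3 and 52 CPM at D19, against 86, 117, 108 and 80.4 CPM at D0, a log2 fold change of -0.78 (adjusted p = 0.00203, SE 0.15).

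Markers of the colon wall moved with these genes. Between D0 and D19 the fibroblast list rose in 10 of 10 genes in KO and 9 of 10 in WT, with sums of 1710.2 to 6162 CPM at KO D19, against 391 to 556 CPM at KO D0, and 1661 to 3636 CPM at WT D19, against 442 to 1005 CPM at WT D0. Leukocyte markers rose in 8 of 8 genes in both genotypes, with sums of 451 to 753 CPM at KO D19, against 14.7 to 22.6 CPM at KO D0, and 105 to 255 CPM at WT D19, against 14 to 32.6 CPM at WT D0. Smooth muscle markers fell in 5 of 12 genes in KO and 9 of 12 in WT. Endothelial markers rose in 6 of 6 genes in KO and 6 of 6 in WT. Markers of crypt-base mesenchyme, such as Grem1 and Foxl1, rose in 4 of 8 genes in KO and 3 of 8 in WT, with sums of 386 to 726 CPM at KO D19, against 136 to 269 CPM at KO D0, and 299 to 554 CPM at WT D19, against 140.2 to 252 CPM at WT D0. Posterior Hox genes, a guide to the stretch of colon sampled, rose in 0 of 7 tested genes in KO and 5 of 7 in WT. No defining marker of the fibroblast, leukocyte or smooth muscle lists was at 0 in these groups. Within D19 the fibroblast sum was 1710.2, 2224, 6162 and 5244 CPM in KO 811, 813, 803 and 804 and 1707, 1661, 3636 and 3535 CPM in WT 685, 686, 805 and 812. Sfrp1 was highest in the same KO libraries, 803 and 804, and in WT 805, which had the highest WT fibroblast sum. The part of these cell types in the changes of Wnt genes was not tested.

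The second comparison set whole colon after 3 cycles against untreated colon. In KO D80 against KO D0 colon 26 members were tested and 11 rose, against 13.4% of all genes. In WT D80 against WT D0 colon 27 were tested and 5 rose, against 7.07%. Too few D0 libraries reached the filter's minimum for Wnt2 and Wnt9a in KO and for Wnt2 and Wnt6 in WT. This leaves 9 in KO and 3 in WT that passed in both groups, counts with no share of all genes to set them against. The members' median log2 fold changes were 0.90 in KO and 0.42 in WT, beside 0.02 and 0.05 over all genes. The WT count depended on single libraries: 9 members were called without WT D80 581, which stood apart, 3 without WT D0 918, WT D80 542 or WT D80 555, 2 without WT D80 541 and 1 without WT D0 920. Beside Wnt2, Wnt2b, Wnt4, Wnt5a, Sfrp1, Sfrp4 and Rspo3, given above, the KO list held Wnt6, Wnt9a, Dkk2 and Dkk3. The WT list was Wnt2, Wnt2b, Wnt6, Fzd4 and Sfrp4.

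Wnt6, an ectodermal ligand in the embryo, had 8.37, 1.22, 12.7 and 16.6 CPM in KO D80 libraries 527, 535, 543 and 544, against 0.585, 0.579, 0.466 and 0.672 CPM in KO D0 colon (log2 fold change 4.02, SE 0.67, adjusted p = 0.000772). WT D80 libraries 581, 541, 542 and 555 had 0.732, 1.36, 4.57 and 1.85 CPM, against 0.655, 0.303, 0.313 and 0.594 CPM in WT D0 colon (log2 fold change 2.14, SE 0.57, adjusted p = 0.0402). High values came from KO 527, 543 and 544 and WT 542, and the other D80 libraries were at 0.732 to 1.85 CPM. The WT call was lost without WT D0 851, WT D0 918, WT D0 920, WT D0 927, WT D80 541, WT D80 542 or WT D80 555 (log2 fold change 1.46 to 2.32, adjusted p 0.0578 to 0.126).

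Dkk2, which binds Lrp5 and Lrp6, followed the same libraries, with 12.1, 2.72, 13.1 and 15.8 CPM in KO D80 colon, against 1.83, 1.34, 1.35 and 1.99 CPM in KO D0 colon (log2 fold change 2.69, SE 0.46, adjusted p = 0.000899). The WT D80 values were 0.845, 2.59, 10.2 and 2.83 CPM, against 4.98, 3.03, 2.91 and 4.78 CPM in WT D0 colon, and were not called. Wnt10a, the neighbour of Wnt6, had 1.76, 0.257, 3.45 and 6.2 CPM in KO and 0.0563, 0.509, 2.33 and 0.506 CPM in WT D80 colon and at most 0.0797 CPM in any D0 library. Wnt3, a ligand of Paneth cells in the mouse small intestine, had 1.65, 0.214, 1.49 and 3.59 CPM in KO and 0, 0.191, 1.14 and 0.126 CPM in WT D80 colon. In all 4 genes KO 527, 543 and 544 and WT 542 were thus the 4 highest D80 libraries.

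Other genes of the pathway were high in those libraries. Notum, a secreted enzyme that removes the lipid from Wnt ligands, had 26.4, 2.55, 30.7 and 23.9 CPM in the KO and 1.92, 3.39, 19 and 4.2 CPM in the WT D80 libraries, in the same order. Wif1, a secreted Wnt binder, had 82.5, 8.47, 82.3 and 108 CPM in KO and 10.3, 10.3, 57.7 and 17.3 CPM in WT. The nuclear target Sp5 had 9.22, 1.18, 8.23 and 11.2 CPM in KO and 0.394, 1.65, 6.96 and 1.29 CPM in WT, again highest in KO 527, 543 and 544 and WT 542. Squamous epithelium markers summed to 52.4, 16.1, 42.3 and 28.4 CPM in KO and 14.3, 23.2, 41.9 and 21.6 CPM in WT D80 libraries, highest in the same 4. The KO libraries 527, 543 and 544 came from the KO mice that also gave a tumor library, as did WT 541, 542 and 555 among WT mice. WT 541 and 555 were lower than WT 542 in these genes. Their Notum, Wif1 and Sp5 values were still above every WT D0 library, and those of KO 535, without a tumor library, above every KO D0 library. The part of these cells and libraries in the values of Wnt6, Wnt10a, Dkk2 and Wnt3 was not tested.

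Wnt9a and Dkk3 moved less. Wnt9a had 0.796, 0.665, 1.05 and 0.921 CPM in KO D80 colon, against 0.638, 0.289, 0.285 and 0.234 CPM in KO D0 colon (log2 fold change 1.16, SE 0.35, adjusted p = 0.0180), and its call was lost without KO D0 872, KO D0 915 or KO D80 543 (log2 fold change 0.99 to 1.06, adjusted p 0.0488 to 0.0526). Dkk3 had 53.9, 37.7, 55.7 and 56.3 CPM in KO D80 colon, against 21.7, 29.8, 16.2 and 18.4 CPM in KO D0 colon (log2 fold change 1.20, SE 0.19, adjusted p = 0.000595). The markers again moved with the genes: in KO D80 against KO D0 colon fibroblast markers rose in 10 of 10 genes, leukocyte markers in 8 of 8 and endothelial markers in 6 of 6, and smooth muscle markers fell in 12 of 12. In WT D80 against WT D0 colon fibroblast markers rose in 4 of 10 and leukocyte markers in 8 of 8, and smooth muscle markers fell in 7 of 12. Crypt-base mesenchyme markers rose in 5 of 8 genes in KO and 2 of 8 in WT. Their part in the result was not tested.

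The third comparison set tumors against D80 colon of the same genotype. In KO tumors 32 members were tested, 7 rose, against 10.3% of all genes, and 10 fell, against 16.4%. In WT tumors 33 were tested, 12 rose, against 8%, and 10 fell, against 13.5%. The tested members' median log2 fold change was 0.14 in KO and 0.53 in WT, beside 0.01 and -0.06 over all genes. The D80 libraries enter the D80 comparisons above as well, so the results are not independent. Many of these calls have a difference built in, since the gene did not pass the filter in both groups. Among those that rose this was so for Wnt7a in KO and for Wnt3, Wnt7a, Wnt7b, Wnt10a, Wnt10b, Wnt11, Wnt16 and Fzd10 in WT, where too few D80 libraries reached the minimum. Among those that fell it was so for Wnt2, Sfrp4 and Rspo1 in both genotypes and Rspo2 in WT. Members that passed in both groups and were called numbered 6 higher and 7 lower in KO tumors and 4 higher and 6 lower in WT tumors. The shares of all genes above are not limited in this way, so these counts cannot be set against them.

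Of the ligands that rose, Wnt6 and Wnt10a reached the highest levels per kilobase. Wnt6 had 38.5, 59.3 and 68.4 CPM in KO tumors 527, 543 and 544, above the 1.22 to 16.6 CPM of KO D80 colon (log2 fold change 2.51, SE 0.67, adjusted p = 0.0177). WT tumors 534, 541, 542, 579 and 555 had 19, 56.9, 41.8, 57.6 and 52.7 CPM, above the 0.732 to 4.57 CPM of WT D80 colon (log2 fold change 4.30, SE 0.56, adjusted p = 0.000660). Wnt10a, with roles in skin, hair and teeth, had 26, 37.2 and 47.5 CPM in KO tumors (log2 fold change 3.68, SE 0.77, adjusted p = 0.00661) and 21, 39.2, 24.8, 42.5 and 29.7 CPM in WT tumors (log2 fold change 5.06, SE 0.73, adjusted p = 0.00101). Every tumor exceeded every colon library for both genes.

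Wnt7b, which also acts in epithelia and on vessels, had 3.05, 4.72 and 3.71 CPM in KO tumors, against 0.604, 0.0429, 0.443 and 0.368 CPM in KO D80 colon (log2 fold change 3.40, SE 0.56, adjusted p = 0.00258). In WT tumors it had 4.36, 4.46, 4.92, 7.46 and 1.11 CPM, against 0, 0.149, 0.329 and 0.152 CPM in WT D80 colon (log2 fold change 4.59, SE 0.69, adjusted p = 0.00126). WT tumor 555 was the lowest tumor yet lay above all D80 libraries.

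Wnt7a, its close paralog, had 1.91, 2.03 and 0.929 CPM in KO tumors, against 0.137, 0.0214, 0 and 0.276 CPM in KO D80 colon (log2 fold change 3.89, SE 0.71, adjusted p = 0.00398). WT tumors had 0.888, 1.47, 0.667, 5.78 and 0.732 CPM, against 0.0563, 0.0424, 0.0299 and 0.0506 CPM in WT D80 colon (log2 fold change 5.23, SE 0.93, adjusted p = 0.00274). WT tumor 579 was the high one, and its squamous marker sum of 334 CPM was next to the lowest of the 5 WT tumors.

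Wnt16 had 5.18, 3.68 and 7.22 CPM in KO tumors, against 0.659, 0.172, 0.317 and 1.29 CPM in KO D80 colon (log2 fold change 3.16, SE 0.59, adjusted p = 0.00412). In WT tumors it had 4.16, 3.68, 4.78, 1.7 and 1.77 CPM, against 0.113, 0.17, 0.239 and 0.0759 CPM in WT D80 colon (log2 fold change 4.26, SE 0.50, adjusted p = 0.000421). No tumor overlapped with colon. In D0 colon it was at most 0.106 CPM.

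**Figure D3:**
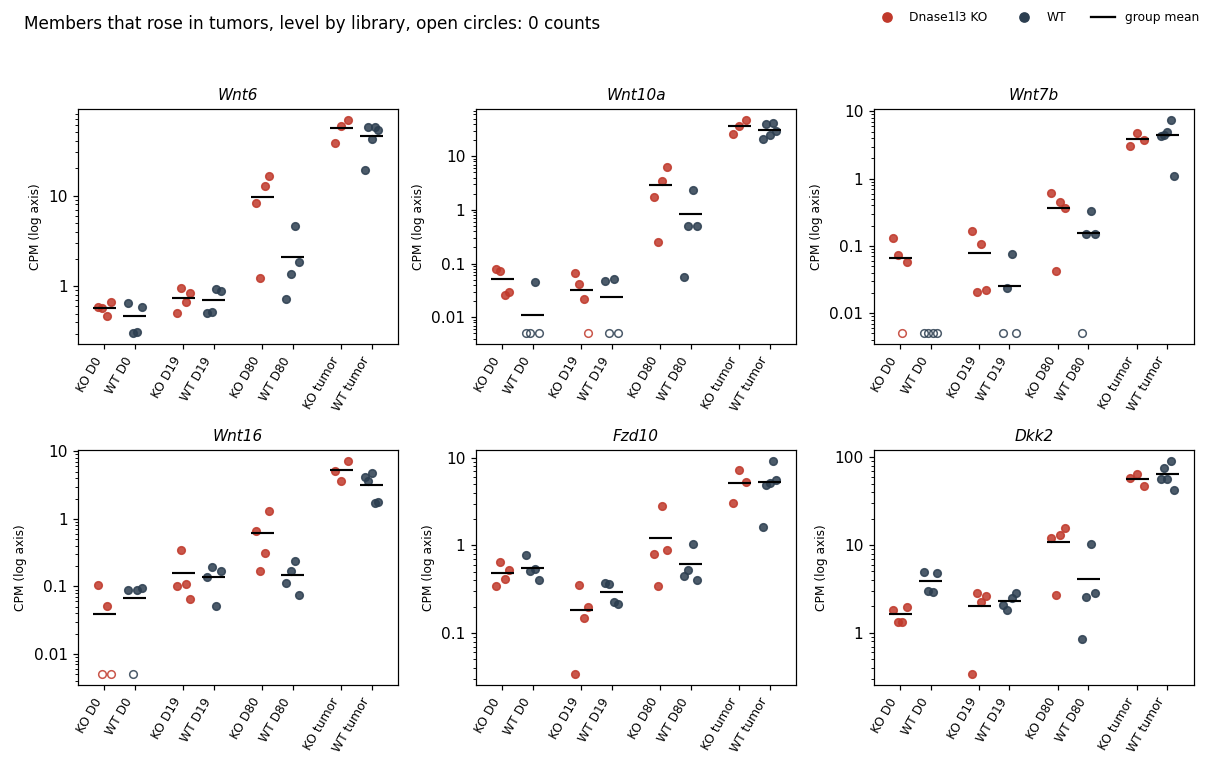
CPM (log axis) of Wnt6, Wnt10a, Wnt7b, Wnt16, Fzd10 and Dkk2 in each library, by stage with KO left of WT, black bars at group means and open circles at 0 counts. Tumors lie above D80 colon of their genotype in all 6 panels, and for Wnt6, Wnt10a and Dkk2 the D80 libraries KO 527, 543, 544 and WT 542 lie between the other D80 libraries and the tumors.

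Another set of ligands was called in WT tumors only, which does not show a difference between genotypes. Wnt3 had 3.4, 2.25, 2.28, 2.15 and 2.98 CPM in WT tumors, against 0, 0.191, 1.14 and 0.126 CPM in WT D80 colon (log2 fold change 2.67, SE 0.74, adjusted p = 0.0213). The Wnt3 call was lost without WT D80 541 or WT D80 555 (log2 fold change 2.37 to 2.43, adjusted p 0.0619 to 0.0678). KO tumors had 2.94, 3.81 and 6.57 CPM, a log2 fold change of 1.38 (adjusted p = 0.135, SE 0.70). The KO and WT tumor values of Wnt3 thus overlapped, and the KO D80 group held 3 high libraries.

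Wnt11, a ligand without beta-catenin, had 1.09, 3.17, 2.22, 2.2 and 0.808 CPM in WT tumors, against 0.113, 0.552, 0.657 and 0.607 CPM in WT D80 colon (log2 fold change 1.81, SE 0.51, adjusted p = 0.0239). The Wnt11 call was lost without WT D80 541, WT D80 555, WT tumor 541 or WT tumor 542 (log2 fold change 1.55 to 1.92, adjusted p 0.0502 to 0.0584). Wnt10b had 0.254, 0.599, 0.501, 0.288 and 0.682 CPM in WT tumors, against 0.0563, 0.0636, 0.119 and 0.228 CPM in WT D80 colon (log2 fold change 1.79, SE 0.50, adjusted p = 0.0218). The Wnt10b call was lost without WT D80 541 or WT D80 542 (log2 fold change 1.53 to 1.78, adjusted p 0.0542 to 0.0733). Both genes separated WT tumors from WT D80 colon by a small margin, but not from all D19 colon libraries.

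Wnt4 had 5.3, 10.8, 11.6, 4.61 and 6.16 CPM in WT tumors, against 1.18, 4.14, 2.69 and 3.77 CPM in WT D80 colon (log2 fold change 1.26, SE 0.41, adjusted p = 0.0395). The Wnt4 call was lost without WT D80 542, WT D80 555, WT tumor 541, WT tumor 542 or WT tumor 555 (log2 fold change 1.07 to 1.39, adjusted p 0.0501 to 0.0905). Wnt5a had 28.8, 37.5, 35.2, 41.3 and 29.5 CPM in WT tumors, against 6.99, 16.3, 21.8 and 13.5 CPM in WT D80 colon (log2 fold change 1.12, SE 0.29, adjusted p = 0.0149). Its call was lost without WT D80 581 (log2 fold change 0.90, adjusted p = 0.00419), the library that stood apart, and with the mouse as a block (log2 fold change 0.93, adjusted p = 0.00713). In KO tumors Wnt4, Wnt5a, Wnt10b and Wnt11 had log2 fold changes of 0.23, 0.35, 0.51 and 0.95 and were not called.

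Wnt2b and Wnt2, higher in D19 and D80 than in D0 colon, fell in tumors. Wnt2b had 1.04, 1.39 and 1.75 CPM in KO tumors, below the 10.1 to 13 CPM of KO D80 colon (log2 fold change -3.03, SE 0.25, adjusted p = 0.000238). In WT tumors it had 1.7, 2.31, 1.31, 1.75 and 2.25 CPM, below the 3.04 to 14.3 CPM of WT D80 colon (log2 fold change -2.51, SE 0.38, adjusted p = 0.00129). Tumor values of Wnt2b overlapped with those of D0 colon.

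Wnt2 had 0.164, 0.24 and 0.286 CPM in KO tumors, below all KO D80 libraries (log2 fold change -1.38, SE 0.38, adjusted p = 0.0199). The Wnt2 call was lost without KO tumor 527 or KO tumor 543 (log2 fold change -1.38 to -1.15, adjusted p 0.0538 to 0.0675). WT tumors had 0.152, 0.359, 0.167, 0.236 and 0.278 CPM and overlapped with WT D80 colon (log2 fold change -1.40, SE 0.42, adjusted p = 0.0305). The Wnt2 call was lost without WT D80 541, WT tumor 534, WT tumor 542 or WT tumor 579 (log2 fold change -1.42 to -1.26, adjusted p 0.0638 to 0.0714) and with the mouse as a block (log2 fold change -0.84, adjusted p = 0.0815). Both calls therefore rested on a small margin.

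Among receptors Fzd10 rose, with 3.05, 7.25 and 5.29 CPM in KO tumors, against 0.796, 0.343, 2.79 and 0.89 CPM in KO D80 colon (log2 fold change 2.11, SE 0.62, adjusted p = 0.0258). The Fzd10 call was lost without KO D80 527, KO D80 544 or KO tumor 543 (log2 fold change 1.85 to 1.98, adjusted p 0.0666 to 0.0692). WT tumors had 1.62, 4.88, 5.14, 9.19 and 5.58 CPM, against 0.451, 0.53, 1.05 and 0.405 CPM in WT D80 colon (log2 fold change 2.99, SE 0.51, adjusted p = 0.00220). Tumors and D80 colon did not overlap in either genotype.

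Other Frizzleds fell. Fzd4 had 7.77, 7.55 and 6.43 CPM in KO tumors (log2 fold change -1.22, SE 0.15, adjusted p = 0.000912) and 7.61, 7.19, 7.87, 9.21 and 9.47 CPM in WT tumors (log2 fold change -1.23, SE 0.16, adjusted p = 0.000602). Every tumor lay below every D80 library of its genotype, whose ranges were 14.8 to 19.8 CPM in KO and 16.2 to 19.5 CPM in WT. Fzd8, a receptor related to Fzd5, had 4.09, 4.4 and 2.57 CPM in KO tumors, against 8.02, 9.99, 9.72 and 9.55 CPM in KO D80 colon (log2 fold change -1.37, SE 0.20, adjusted p = 0.00150). WT tumors had 2.79, 3.35, 3.28, 4.37 and 4.97 CPM, against 5.58, 9.42, 9.2 and 10.7 CPM in WT D80 colon (log2 fold change -1.34, SE 0.24, adjusted p = 0.00284). Fzd8 thus separated tumors from colon in both genotypes.

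Fzd9 had 0.981, 0.773 and 1.68 CPM in KO tumors, against 2.28, 3.82, 2.63 and 3.32 CPM in KO D80 colon (log2 fold change -1.41, SE 0.35, adjusted p = 0.0140). WT tumors had 0.761, 1.14, 0.89, 0.864 and 0.833 CPM, against 1.86, 2.46, 1.67 and 3.74 CPM in WT D80 colon (log2 fold change -1.56, SE 0.28, adjusted p = 0.00298). These groups did not overlap either. Fzd2 fell in KO tumors, with 4.82, 5.79 and 4.43 CPM, against 10.7, 8.49, 11.3 and 12.3 CPM in KO D80 colon (log2 fold change -1.11, SE 0.18, adjusted p = 0.00216). WT tumors had 4.34, 3.62, 4.51, 9.97 and 6.79 CPM of Fzd2, against 10.5, 10.2, 10.1 and 10.9 CPM in WT D80 colon (log2 fold change -0.96, SE 0.29, adjusted p = 0.0314), under the fold threshold, with tumor 579 close to colon.

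Receptors not called in tumors include those best known from the crypt. Fzd5 had 44.4, 39.4 and 18.3 CPM in KO tumors, against 51.9, 62.2, 51.8 and 53.3 CPM in KO D80 colon, a log2 fold change of -0.73 (adjusted p = 0.0428, SE 0.25), under the fold threshold. Fzd7, the Frizzled of the Lgr5-positive stem cell in mouse small intestine, had 23, 27.6 and 27.9 CPM in KO tumors at a log2 fold change of 0.71 (adjusted p = 0.00704, SE 0.15), and 31.1, 24.2, 24.8, 26.4 and 20.8 CPM in WT tumors, a log2 fold change of 0.66 (adjusted p = 0.0182, SE 0.18). Fzd6, a receptor of planar polarity, had a log2 fold change of 0.96 (adjusted p = 0.00340, SE 0.17) in KO and 0.65 (adjusted p = 0.0296, SE 0.19) in WT tumors. Fzd6 and Fzd7 were thus higher in every tumor than in any D80 library of its genotype, by less than the fold threshold. Fzd1 and Fzd3 had log2 fold changes of -0.13 and -0.65 in KO and 0.53 and -0.72 in WT tumors.

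Of the secreted modulators Dkk2 rose and Sfrp1, Sfrp4, Rspo1 and Rspo3 fell in both genotypes, and Rspo2 fell in WT tumors. Dkk2 had 57.5, 63.6 and 47.2 CPM in KO tumors, against 12.1, 2.72, 13.1 and 15.8 CPM in KO D80 colon (log2 fold change 2.34, SE 0.48, adjusted p = 0.00601). In WT tumors it had 56, 74.9, 56.8, 90.5 and 42.6 CPM, against 0.845, 2.59, 10.2 and 2.83 CPM in WT D80 colon (log2 fold change 3.85, SE 0.63, adjusted p = 0.00179). All tumors lay above all colon libraries. Dkk3 had 48, 70.6 and 42 CPM in KO and 29.6, 56.6, 61.9, 86.8 and 78.4 CPM in WT tumors, with log2 fold changes of 0.04 (adjusted p = 0.875, SE 0.20) in KO and 0.53 (adjusted p = 0.217, SE 0.30) in WT.

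Sfrp1 had 10.2, 16.4 and 12.8 CPM in KO tumors, against the 105 to 136 CPM of KO D80 colon (log2 fold change -3.25, SE 0.21, adjusted p = 0.000125). It had 9.89, 14.3, 11.2, 10.3 and 14.7 CPM in WT tumors, against the 25.8 to 83.6 CPM of WT D80 colon (log2 fold change -2.29, SE 0.31, adjusted p = 0.000701). The tumors of both genotypes fell into 1 narrow range, below every D80 library.

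Sfrp4 had 0.164, 0.107 and 0.107 CPM in KO tumors, against 1.54, 3.0, 2.79 and 1.53 CPM in KO D80 colon (log2 fold change -4.12, SE 0.43, adjusted p = 0.000495). WT tumors had 0.127, 0.12, 0.167, 0.942 and 0.126 CPM, against 1.3, 2.76, 1.97 and 2.25 CPM in WT D80 colon (log2 fold change -2.91, SE 0.62, adjusted p = 0.00673). Tumor 579 held more Sfrp4 than the other tumors and still less than any D80 library. Sfrp2 was at 3.71, 4.43 and 2.57 CPM in KO and 3.32, 1.02, 1.47, 1.65 and 3.69 CPM in WT tumors, with log2 fold changes of 0.55 and -0.28 that were not called.

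Rspo3 had 0.709, 0.56 and 1.0 CPM in KO tumors, against the 4.76 to 6.95 CPM of KO D80 colon (log2 fold change -2.91, SE 0.29, adjusted p = 0.000424). WT tumors had 0.66, 1.14, 0.834, 1.18 and 1.82 CPM, against the 2.59 to 5.41 CPM of WT D80 colon (log2 fold change -2.12, SE 0.33, adjusted p = 0.00142). Each tumor was below each D80 library of its genotype.

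Rspo1 had 0, 0.187 and 0.179 CPM in KO tumors, against 0.467, 1.22, 1.11 and 0.829 CPM in KO D80 colon (log2 fold change -2.92, SE 0.71, adjusted p = 0.0125). WT tumors had 0, 0.030, 0, 0.0262 and 0.177 CPM, against 0.507, 1.25, 1.05 and 0.733 CPM in WT D80 colon (log2 fold change -4.25, SE 0.72, adjusted p = 0.00205). A KO tumor and 2 WT tumors had no Rspo1 read at all.

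Rspo2 had 0.0254, 0.030, 0, 0 and 0.0758 CPM in WT tumors, against 0.563, 0.297, 0.418 and 0.455 CPM in WT D80 colon (log2 fold change -3.95, SE 0.61, adjusted p = 0.00138). It had no read in the 3 KO tumors, against 0.165, 0.343, 0.095 and 0.184 CPM in KO D80 colon, and with 3 counts over the group as the limit that 0 counts allow it was at least 6.70-fold lower. Rspo1 and Rspo2 were too scarce to be tested between tumors, as were Wnt2 and Sfrp4.

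**Figure D4:**
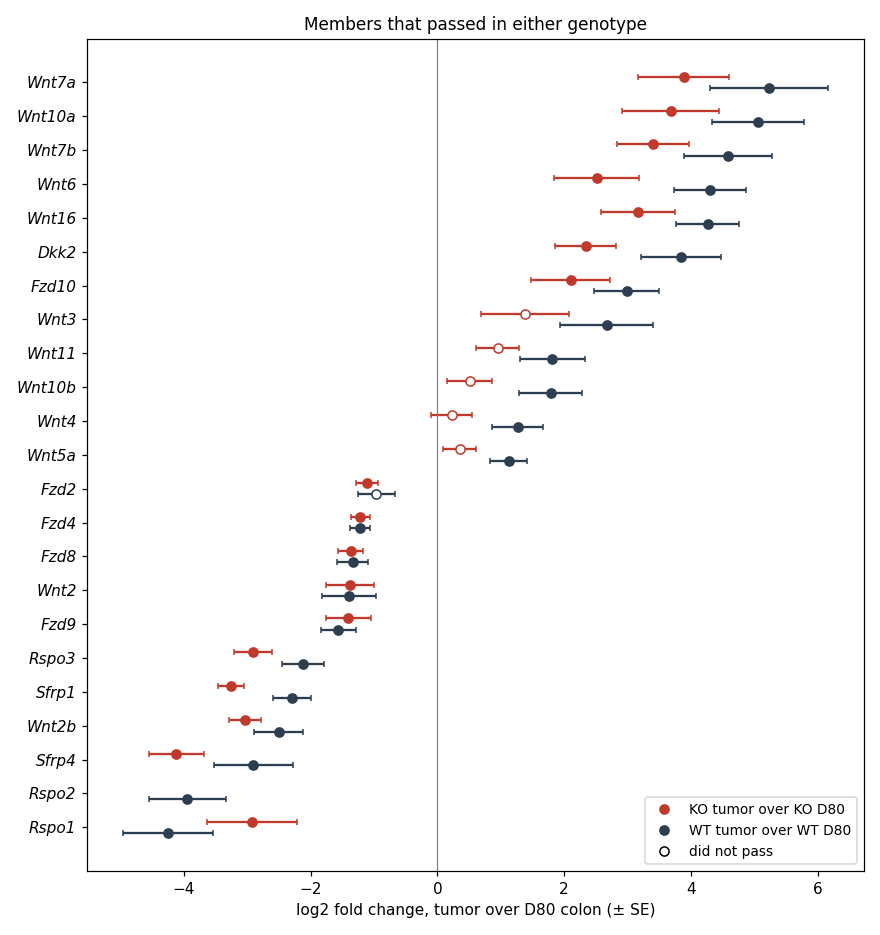
Log2 fold change of tumor over D80 colon for each member that passed in either genotype, KO above WT, with bars for the standard error; open symbols did not pass adjusted p 0.05 and a fold of 2. Wnt6, Wnt7a, Wnt7b, Wnt10a, Wnt16, Fzd10 and Dkk2 lie on the high side and Wnt2, Wnt2b, Sfrp1, Sfrp4, Rspo1 and Rspo3 on the low side in both genotypes.

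Tissue make-up differed widely between tumors and D80 colon. Smooth muscle markers fell in 12 of 12 genes in both genotypes, with sums of 207 to 322 CPM in KO tumors, against 2598 to 4091 CPM in KO D80 colon, and 233 to 914 CPM in WT tumors, against 4183 to 5215 CPM in WT D80 colon. Fibroblast markers fell in 5 of 10 genes in KO tumors, with sums of 1047 to 1329 CPM, against 1836 to 2365 CPM in KO D80 colon. In WT tumors 1 of 10 fell, and sums of 1051 to 1824 CPM overlapped with the 659.6 to 1730.4 CPM of WT D80 colon. Sfrp1, Wnt2b and Rspo3 fell in tumors of both genotypes, and the part of fibroblasts in this was not tested.

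Markers of crypt-base mesenchyme summed to 368 to 387 CPM in KO tumors, against 435 to 478 CPM in KO D80 colon, and 321 to 410.4 CPM in WT tumors, against 289 to 368 CPM in WT D80 colon. Of the 8 genes, 5 fell and 1 rose in KO and 3 fell and 2 rose in WT. Adipocyte markers were nearly absent from tumors, with Adipoq, Lep and Retn at 0 in all KO tumors. Posterior Hox genes rose in 4 of 7 tested genes in both genotypes, with sums of 305 to 428 CPM in KO tumors, against 119 to 168 CPM in KO D80 colon, and 307 to 495 CPM in WT tumors, against 123 to 231 CPM in WT D80 colon, without overlap.

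Squamous epithelium markers, keratins and others that the colon mucosa lacks but the anorectal junction has, summed to 649, 549 and 411 CPM in KO tumors 527, 543 and 544 and 732, 1224, 1624, 334 and 142 CPM in WT tumors 534, 541, 542, 579 and 555, against 16.1 to 52.4 CPM in KO D80 and 14.3 to 41.9 CPM in WT D80 colon. They rose in 7 of 8 tested genes in KO and 9 of 9 in WT tumors. Several ligands that rose, among them Wnt6, Wnt7a, Wnt7b, Wnt10a and Wnt16, are known from skin and other squamous epithelia. Set beside the squamous sums, Wnt16 was lowest in the WT tumors with the lowest sums, at 1.7 CPM in 579 and 1.77 CPM in 555. Among WT tumors it was highest in 542, at 4.78 CPM, which had the highest sum. WT 541, next in sum, had 3.68 CPM, less than the 4.16 CPM of WT 534. Among KO tumors Wnt16 was highest in 544, at 7.22 CPM, which had the lowest sum, with 5.18 CPM in 527 and 3.68 CPM in 543. Wnt7b was lowest in 555, at 1.11 CPM, and highest in 579, at 7.46 CPM. Wnt7a, Wnt6 and Wnt10a were also highest of the WT tumors in 579. The lowest Wnt6 and Wnt10a values, 19 and 21 CPM, were in 534. The part of any of these cell types in the tumor results was not tested.

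The fourth comparison was between genotypes at each stage, and no tested member passed the thresholds at any stage. At D0, 25 members were tested and 0 were called by edgeR, against 0% of all genes, with 1 at an unadjusted p under 0.05, against 9.63%. DESeq2 called 1. The shares of all genes are those of edgeR, and the share that DESeq2 called is not given, here or below, so its calls cannot be set against one. The KO and WT values of 1 member did not overlap, against 3.41% of all genes. This member was Dkk2 in each case, with 1.83, 1.34, 1.35 and 1.99 CPM in KO D0 colon, against 4.98, 3.03, 2.91 and 4.78 CPM in WT D0 colon (log2 fold change -1.26, SE 0.25, adjusted p = 0.309). The KO values all lay below the WT values. Posterior Hox genes summed to 191, 207, 179 and 56.4 CPM in KO and 57.6, 63.6, 80.4 and 108 CPM in WT D0 colon, higher in 3 of 4 KO libraries than in any WT library, and their part was not tested.

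At D19, 26 members were tested and 0 were called by edgeR, against 0% of all genes, with 2 at an unadjusted p under 0.05, against 11.3%, and 1 called by DESeq2. Those 2 members were also the tested ones whose groups did not overlap, against 9.08% of all genes tested. Rspo1 had 1.72, 1.52, 2.17 and 2.06 CPM in KO D19 colon, against 0.512, 0.789, 1.32 and 0.837 CPM in WT D19 colon (log2 fold change 1.12, SE 0.29, adjusted p = 0.329), and was the gene that DESeq2 called. Fzd8 had 8.3, 9.9, 9.87 and 10.5 CPM in KO, against 15.3, 15.2, 11.4 and 12.8 CPM in WT (log2 fold change -0.49, SE 0.18, adjusted p = 0.400). Rspo1 was higher and Fzd8 lower in every KO than in every WT library. Wnt8b, which did not pass the filter here, had 0 to 0.0644 CPM in KO and 0.177 to 1.22 CPM in WT D19 colon, without overlap. Leukocyte sums also differed without overlap, at 451 to 753 CPM in KO, against 105 to 255 CPM in WT, and fibroblast sums overlapped, at 1710.2 to 6162 and 1661 to 3636 CPM. The part of these cells in the Rspo1 and Fzd8 values was not tested.

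At D80, 30 members were tested and 0 were called by edgeR, against 0% of all genes, or by DESeq2, with 4 at an unadjusted p under 0.05, against 5.55%. Sfrp1 had 128, 136, 105 and 126 CPM in KO D80 colon, against 25.8, 65.4, 83.6 and 44.9 CPM in WT D80 colon (log2 fold change 1.15, SE 0.31, adjusted p = 0.681). It was the 1 tested member without overlap, against 5.25% of all genes tested. Its log2 fold change was 0.93 without WT D80 581. It was 0.62 between KO 543 and 544 and WT 541 and 542 alone, whose labels share the number before the mouse number, with no block. Wnt6 (log2 fold change 2.15, SE 0.77, adjusted p = 0.681), Fzd1 (log2 fold change 0.50, SE 0.20, adjusted p = 0.681) and Rspo2 (log2 fold change -1.09, SE 0.42, adjusted p = 0.681) were the others. Their groups overlapped. Fibroblast, leukocyte and crypt-base mesenchyme sums were higher in every KO than in every WT D80 library, at 1836 to 2365, 188.5 to 342 and 435 to 478 CPM in KO, against 659.6 to 1730.4, 58.4 to 179.9 and 289 to 368 CPM in WT D80 colon. Smooth muscle sums were lower, at 2598 to 4091 CPM in KO, against 4183 to 5215 CPM in WT D80 colon, and the part of these cells in the Sfrp1 values was not tested.

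Between tumors the study used an unadjusted p under 0.01 with a fold over 2, and by this rule 0 of 29 tested members were called by edgeR, against 0.306% of all genes, and 0 by DESeq2. At an unadjusted p under 0.05 it was 1, against 6.61%, and no member separated the groups, against 3.25%. That member was Wnt3, with 2.94, 3.81 and 6.57 CPM in KO tumors, against 3.4, 2.25, 2.28, 2.15 and 2.98 CPM in WT tumors (log2 fold change 0.85, SE 0.32, unadjusted p = 0.0239 and adjusted p = 0.699 by edgeR). Its log2 fold change was 0.36 without KO tumor 544, the library that stood apart, at an unadjusted p of 0.175, and 1.10 without KO tumor 527, where it was called. For 4 genes of high tumor levels named above the log2 fold changes of KO over WT tumors were 0.34 (SE 0.35) for Wnt6, 0.30 (SE 0.29) for Wnt10a, -0.15 (SE 0.23) for Dkk2 and -0.19 (SE 0.31) for Dkk3.

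**Figure D5:**
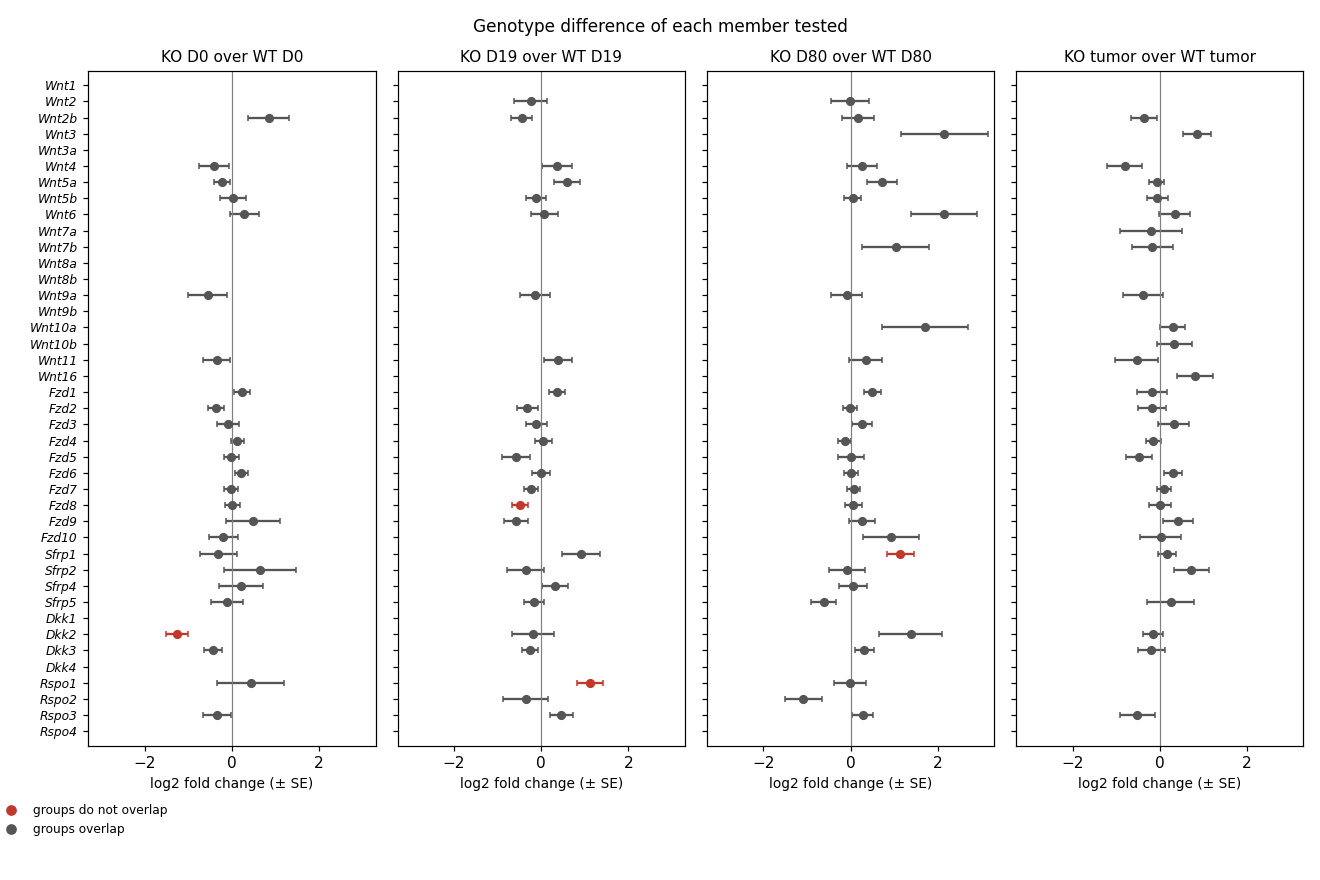
Log2 fold change of KO over WT with its standard error for each tested member at D0, D19, D80 and in tumors. No tested member passed the thresholds at any stage. The red points, Dkk2 at D0, Rspo1 and Fzd8 at D19 and Sfrp1 at D80, are the tested members whose KO and WT values did not overlap.

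Differences between genotypes in the change itself were tested as interactions, the KO change minus the WT change on the log2 scale. For D19 over D0, 28 members were tested and 0 passed in edgeR, against 0.0298% of all genes, with 3 at an unadjusted p under 0.05, against 8.15%, and 1 by DESeq2. The interaction values were -8.00 (adjusted p = 0.147, SE 1.77) for Wnt8b, -1.27 (adjusted p = 0.576, SE 0.56) for Wnt2b and 0.82 (adjusted p = 0.573, SE 0.36) for Wnt5a. Wnt8b, a ligand of the embryonic brain, had 0, 0.0412, 0.0644 and 0 CPM in KO D19 colon, against 0.638, 0, 0.363 and 0 CPM in KO D0 colon. In WT D19 colon it had 1.12, 1.22, 0.177 and 0.526 CPM, against 0, 0, 0 and 0.0625 CPM in WT D0 colon. With values this near 0 the fitted size depends on the prior count, and Wnt8b was the gene DESeq2 called.

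For D80 over D0, 30 members were tested and 0 passed by edgeR, against 0% of all genes, or by DESeq2, with 4 at an unadjusted p under 0.05, against 7.84%. Dkk2 had an interaction value of 2.66 (adjusted p = 0.560, SE 0.82), Sfrp1 of 1.49 (adjusted p = 0.560, SE 0.59), Wnt5a of 0.99 (adjusted p = 0.560, SE 0.41) and Dkk3 of 0.79 (adjusted p = 0.560, SE 0.33). For tumor over D80 it was 0 of 33 by edgeR, against 0% of all genes, and 0 by DESeq2, with Sfrp1 alone at an unadjusted p under 0.05, against 11.7%, at -0.96 (adjusted p = 0.419, SE 0.39). The calls made in KO and not in WT above, or the reverse, are therefore not shown to differ between genotypes.

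Other genes of the pathway were taken as a list of 35 that the naming rule leaves out. Which group let each of them pass the filter was not examined, so some of their calls may have a difference built in. In KO tumors against KO D80 colon 10 of 34 tested rose, against 10.3% of all genes, and 3 fell, against 16.4%. The median log2 fold change of the list was 0.39. Tcf7, a nuclear partner of beta-catenin (1.71), and Ptk7, a Wnt co-receptor (1.44), rose, and Frzb, a secreted Frizzled-related protein also known as Sfrp3 (-1.44), and Ror1, a receptor of Wnt5a (-1.64), fell on the log2 scale. In WT tumors against WT D80 colon 12 of 34 rose, against 8% of all genes, and 3 fell, against 13.5%, with a median of 0.67. Lef1, like Tcf7 a nuclear factor (3.58), Nkd1, a feedback inhibitor (3.50), and Wif1 (3.57) rose and Frzb fell (-1.63). Frzb thus fell with Sfrp1 and Sfrp4, while the other secreted inhibitors Wif1 and Notum rose with Dkk2.

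In whole colon most calls of the same list were at KO D80. At KO D80 against KO D0 12 of 34 rose, against 13.4% of all genes, and 1 fell. The calls were led by Tcf7 (2.03), Notum (5.99), Wif1 (5.56) and the ligase Rnf43 (1.75) on the log2 scale. At WT D80 against WT D0 4 of 33 rose, against 7.07% of all genes, namely Wif1 (4.07), Notum (3.82), Sp5 (3.08) and Dkkl1 (1.67). At WT D19 against WT D0 1 of 32 rose, Lef1 (1.19), against 9.33% of all genes, and 1 fell, Notum (-1.31). In WT D0 colon Sp5 had only 0.218 to 0.403 CPM and Lef1 0.224 to 0.353 CPM, so their rises may have a difference built in. At KO D19 against KO D0 0 of 33 were called by edgeR, with 6 at an unadjusted p under 0.05, and DESeq2 called Axin2, Dkkl1 and Sostdc1. These counts have no share of all genes to set them against. Between genotypes edgeR called 0 at every stage. At an unadjusted p under 0.05 there were 3 of 31 at D0, against 9.63% of all genes, and 2 of 32 at D19, against 11.3%. At D80 it was 0 of 34, against 5.55%, and in tumors 0 of 34, against 6.61%. DESeq2 called Tcf7l1 at D0 and none at the other stages.

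Several members were barely read in any sample. Wnt1 had 4 counts over all 32 libraries, Wnt8a 5, Wnt3a 11, Dkk1 3 and Dkk4 8, and none of these was tested. Wnt9b had 105 counts, at most 0.43 CPM in a library, and Rspo4 90. Rspo4 was highest at 0.583 CPM in KO D80 544 and 0.50 CPM in the tumor of the same mouse, and had 0 or 1 library with a read in each D0 and D19 group. Wnt5b, a relative of Wnt5a, was read throughout, with 4.11 ± 0.399 CPM in KO tumors (SD, n = 3), 4.44 ± 0.93 CPM in WT tumors (SD, n = 5), 2.58 ± 0.366 CPM in KO D80 and 2.42 ± 0.325 CPM in WT D80 colon (SD, n = 4 each), and was not called.

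Exons of 7 members overlap a gene on the opposite strand, and the sources used here do not state whether reads were counted by strand. These are Wnt5a (with Gm2670), Wnt7b (AU022754), Wnt11 (Gm8398), Fzd5 (Gm38058), Fzd6 (Gm26704), Sfrp2 (Gm26771) and Rspo3 (Gm48159), and part of their counts may come from the partner.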

How the data were processed

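RNA was extracted from whole colon or tumor and sequenced as single reads of 75 bases, per the labels. The deposited values are raw counts of reads per gene, which the authors made with STAR and Subread on mm10 after FastQC 0.11.5, per the labels, with no normalization. Strand settings are not given in the sources used here. Each library is a separate mouse, apart from the 3 mice of each genotype that gave both a tumor and a D80 colon. Genes were placed and measured for exon length with the GENCODE M21 annotation of the same build, and promoters were read from RefSeq (GRCm38.p6).

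From the counts, TMM-scaled CPM were computed in R 4.3.3 with edgeR 4.0.16. Each of 10 group comparisons was fitted on its own groups with filterByExpr and the quasi-likelihood test of edgeR, and 3 interactions on their 4 groups. p-values were adjusted by Benjamini-Hochberg over all genes tested, and the scripts were tested on simulated data. Thresholds follow the study's methods: adjusted p under 0.05 and fold over 2 for colon, unadjusted p under 0.01 and fold over 2 between tumors. DESeq2 1.42.0, RLE size factors, other filters, 1 fit of all libraries, blocks and omission of single libraries were alternatives. The 41 genes, 35 other pathway genes and 11 marker lists were chosen with earlier results of these data known. Every member is named, with values by library where it was called; of the other pathway genes up to 4 with the smallest p among those called are named per comparison. Tumor and D80 colon of the same mouse deviated together weakly (Pearson r across 21468 genes 0.0344 to 0.198), and the pairing comes from the mouse numbers in the labels.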

Additional observations from a re-analysis of the deposited data

Results flagged for a closer look

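For the 28 members called in a comparison, groups of 4 or 5 libraries with a mean of at least 1 CPM were searched. In 7 of 115 such groups a single library lay far from the rest by Dixon's criterion, which marks about 1 group in 20 by chance. Wnt7a was at 5.78 CPM in WT tumor 579, against 0.667 to 1.47 CPM in the other WT tumors. Fzd9 was at 12.1 CPM in KO D0 853, against 1.52 to 1.89 CPM in the other KO D0 colons, and at 2.08 CPM in KO D19 803, against 1.01 to 1.15 CPM. Fzd4 was at 11.4 CPM in KO D0 852, against 8.47 to 8.68 CPM. KO D80 535 was high for Fzd5, at 62.2 CPM against 51.8 to 53.3 CPM, and low for Dkk3, at 37.7 CPM against 53.9 to 56.3 CPM. Fzd8 was low in WT D0 920, at 11.9 CPM against 14.0 to 14.3 CPM.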

How the results depend on the processing

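Direction was followed for the members called in a comparison or, where none was called, for those at an unadjusted p under 0.05, and none of these changed direction under the alternatives run. Counts of members called are given in this section without the share of all genes, so they show only how the calls moved. DESeq2 called 1 member between KO D0 and WT D0 (Dkk2), 1 between KO D19 and WT D19 (Rspo1) and 1 in the D19 interaction (Wnt8b), where edgeR called 0. Without a filter on low counts 1 member was called between KO D0 and WT D0 (Dkk2) and 18 in KO D80 against KO D0, where 11 were called. With at least 10 counts required in every library fewer members were tested, and 2 in place of 5 were called in WT D80 against WT D0, 10 in place of 22 in WT tumors against WT D80 and 11 in place of 17 in KO tumors against KO D80. In a single fit of all libraries 1 member was called between KO D19 and WT D19 and 1 in the D19 interaction, in both cases Wnt8b, 9 in WT D80 against WT D0 and 17 in KO D80 against KO D0. This fit moved the median of all genes by 0.115 on the log2 scale for WT tumors against WT D80. Without the libraries that stood apart, 9 members were called in WT D80 against WT D0. The cause of these shifts was not tested.

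Omission of single libraries gave 1 to 9 calls in WT D80 against WT D0, 11 to 16 in KO D80 against KO D0, 7 to 11 in WT D19 against WT D0 and 6 to 11 in KO D19 against KO D0. It gave 18 to 22 in WT tumors and 16 to 18 in KO tumors against D80 colon, 0 to 1 between tumors (1, Wnt3, without KO tumor 527), 0 to 1 in the D19 interaction (1, Wnt8b, without KO D0 872) and 0 in the other genotype comparisons and interactions. With the mouse as a replicate block, on the mice that gave both samples, 22 members were called in WT tumors, where Wnt2 and Wnt5a lost their calls, 19 in KO tumors and 0 in the tumor interaction. Limiting the genotype comparisons to libraries whose label prefix occurs in both genotypes left 0 calls. The prefix was a block at D0 and D19. At D80 and between tumors only prefix 76 remained, so no block was fitted, and KO 543 and 544 were compared with WT 541 and 542. Depth limits members such as Wnt8b, Rspo2 and Wnt10b, which had under 1 CPM in most libraries, and the 3 KO tumors limit comparisons with that group.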
